A study of Mus musculus with 32 samples.

Results

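The MHC class II presentation genes studied here are 10 genes whose products build, load and regulate the peptide-presenting class II molecules: H2-Aa, H2-Ab1, H2-Eb1, H2-DMa, H2-DMb1, H2-DMb2, H2-Oa, H2-Ob, Cd74 and Ciita. They were chosen by name, as every probe that the array annotation assigns to 1 of these symbols, which gave 14 of 55681 probes and 10 of 34947 named genes. A gene was tested where some group read its probe well above background in each of its 4 arrays, which left 8 of the 10, and 6 of these (H2-Aa, H2-Ab1, H2-Eb1, H2-DMa, H2-DMb1 and Cd74) were well above background on all 32 arrays. Ciita was well above background on 12 of 32 arrays, at most 2 of 4 in any group, and H2-DMb2 on 2 of 32, so neither was tested and no level is compared for them. In the GRCm38 annotation of RefSeq the 8 H2 genes lie in 1 cluster on chromosome 17, from H2-Oa, which starts at position 34092379, to H2-Eb1, which ends at 34316674, and Ciita lies on chromosome 16 (10480014 to 10531064).

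Liver RNA of male C57/BL6 mice was hybridized to 32 1-colour 60-mer oligonucleotide arrays, 1 per liver sample, with 4 arrays in each of 8 groups. C mice received standard diet, and MCD mice a diet deficient in methionine and choline, for 3 weeks before a 70% partial hepatectomy (PH). Mice of the C+Fc-GLP-1 group (standard diet) and of the M+Fc-GLP-1 group (MCD diet) were injected with Fc-GLP-1, a GLP-1 receptor agonist, over the last 2 weeks, while the other groups received vehicle. Each of these 4 groups was sampled at PH and again 2 weeks after PH, with diet and treatment continued. All groups were mice aged 8 weeks when the diets began, per the methods of the study. The groups after PH hold only mice that survived the surgery, and the labels do not say whether a mouse sampled at PH was sampled again. The labels conflict on the agent: the sample source names Fc-GLP-1 for all treated groups but also a dual agonist for C+Fc-GLP-1 mice after PH, other fields name a dual agonist (GLP1R/GCGR) for treated groups, and the values do not settle it. The arrays lay on 5 slides: C and MCD before PH shared a slide, as did the treated groups before PH and the treated groups after PH, while C after PH and MCD after PH had a slide each and were read on another scanner on another day, so that slide and group cannot be told apart in any comparison across slides. Arrays read from 36.3% to 69.2% of their probes well above background, and the hepatocyte markers Alb, Apoa1, Ttr, Serpina1a and Cps1 averaged between 8.01 and 9.50 per array on the log2 scale used throughout, in which 0 is the 75th percentile of the array. Before PH that percentile was an intensity of 209 to 395 in C, 442 to 564 in MCD and 268 to 338 in M+Fc-GLP-1 arrays. It was highest, at 778, in C replicate 1 after PH. The part of array intensity in the differences was not tested.

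Class II molecules are heterodimers of an alpha and a beta chain that display peptides from endocytosed proteins to CD4+ T cells. Dendritic cells, B cells and macrophages are their main source, and in liver this includes Kupffer cells, whereas hepatocytes normally express little. The invariant chain Cd74 fills the groove of new class II molecules, H2-DM exchanges its remnant for peptide, and H2-DO restrains H2-DM, chiefly in B cells. Transcription is set by CIITA, a coactivator that docks on factors bound to the X and Y boxes of the promoters, and interferon gamma is its best known inducer. Fewer cells of a type and less RNA per cell cannot be told apart in whole liver.

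The promoters are shown because they carry the element through which these genes are known to be switched on together. RefSeq promoter sequences (GRCm38, 250 bases before to 50 after the start that the table uses) were matched to 7 of the 10 members, in 8 entries. In 6 members the letters TGATTGG of the Y box begin 45 to 92 bases before the start, and in 5 of these a motif of the X box type ends 15 to 19 bases before them on the same strand. Capitals mark the X box motif (AACNNATGATG, where N is any base, or AACTTTGACG in H2-Aa) and the Y box motif, and each stretch lies wholly upstream of that start, which for H2-DMb2 is a start inside the annotated gene. The stretches are those of H2-Aa (chr17:34287857-34287912, minus strand), H2-Eb1 (chr17:34305768-34305822, plus strand), H2-DMb1 (chr17:34153089-34153144, plus strand), H2-DMb2 (chr17:34145118-34145173, plus strand), H2-Ob (chr17:34238810-34238862, plus strand) and H2-Oa (chr17:34092289-34092350, plus strand).
H2-Aa: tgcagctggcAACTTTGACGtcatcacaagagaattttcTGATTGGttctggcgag
H2-Eb1: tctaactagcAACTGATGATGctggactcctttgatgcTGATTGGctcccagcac
H2-DMb1: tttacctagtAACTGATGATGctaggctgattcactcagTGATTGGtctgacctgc
H2-DMb2: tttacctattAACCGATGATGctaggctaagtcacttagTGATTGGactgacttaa
H2-Ob: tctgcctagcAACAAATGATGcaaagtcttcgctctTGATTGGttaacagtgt
H2-Oa: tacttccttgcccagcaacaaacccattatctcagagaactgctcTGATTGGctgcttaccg

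Searched on both strands of all 32851 promoters of the table, TGATTGG was held by 7.82%, AACNNATGATG by 0.137% and AACTTTGACG by 0.0183%. AACNNATGATG followed within 40 bases by TGATTGG was held by 4 promoters, 0.0122% of all, those of H2-Eb1, H2-DMb1, H2-DMb2 and H2-Ob. The letters of AACNNATGATG are what these 4 share, and those of AACTTTGACG were read off H2-Aa, so that the matches of the members are a description. H2-DMb1 and H2-DMb2 are close paralogs that differ by few letters in the stretch shown, and a share of the H2-DMb1 signal from H2-DMb2 RNA cannot be told apart on this array. The letters TGATTGG were not found in the promoters of H2-DMa in this window.

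The levels of most members were ordered alike across the groups. In 7 of the 8 tested members, all but H2-Ob, the 4 groups with the highest means were MCD before PH, C after PH, MCD after PH and C+Fc-GLP-1 after PH. The lower 4 places were held by M+Fc-GLP-1 after PH and by C and both treated groups at PH. H2-Oa joined the 7 narrowly, with MCD after PH at -2.37 only 0.01 above C+Fc-GLP-1 before PH at -2.38. M+Fc-GLP-1 after PH was its lowest group. For H2-Aa, the alpha chain of the A molecule, the means fell from 1.93 (SD 0.92) in C after PH through 1.89 (SD 0.51), 1.66 (SD 0.48) and 1.62 (SD 1.33) in MCD before PH, MCD after PH and C+Fc-GLP-1 after PH to 0.85 (SD 0.22) in M+Fc-GLP-1 after PH, 0.54 (SD 0.26), -0.03 (SD 0.60) and -0.07 (SD 0.61) in C+Fc-GLP-1, C and M+Fc-GLP-1 at PH. No neighbours in this order were farther apart than 0.77, less than the SD of 1.33 in C+Fc-GLP-1 mice after PH.

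**Figure D1:**
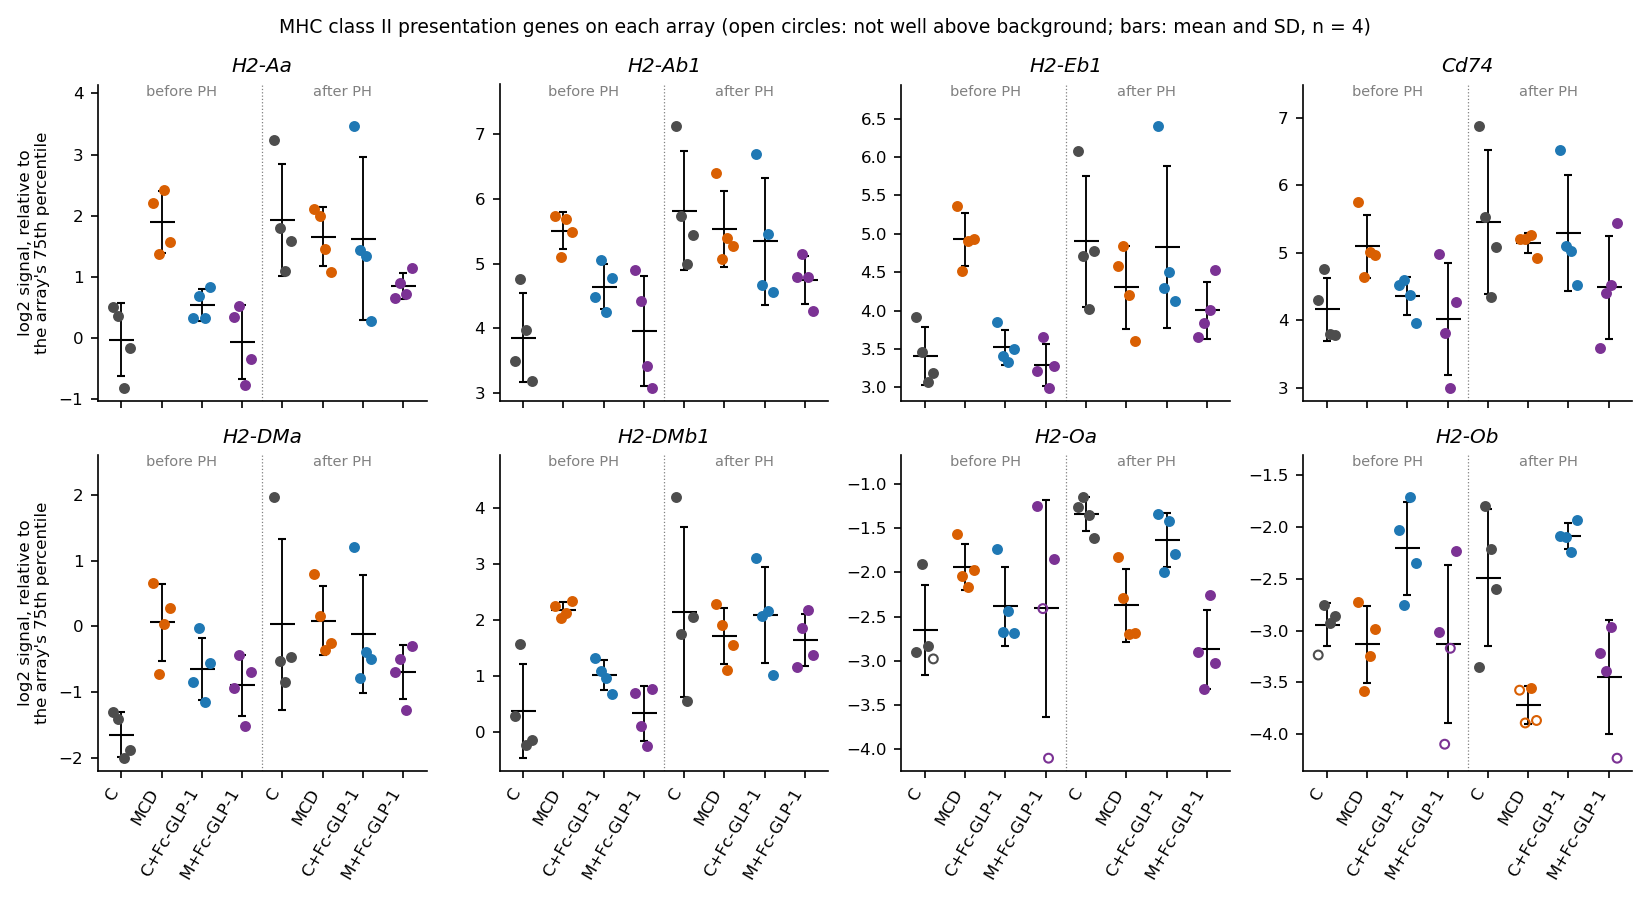
Log2 signal relative to the 75th percentile of the array (y axis) of the 8 tested members on each of the 32 arrays, by group (x axis, before PH on the left of each dotted line). Points are arrays, open circles were not well above background, and bars give the mean and SD of 4 arrays; in H2-Aa, H2-Ab1, H2-Eb1, H2-DMa and H2-DMb1 all 4 MCD arrays before PH lie above all 4 C arrays.

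The first comparison asks what the MCD diet did in untreated mice before PH, with all 8 arrays on the same slide. The chains of the A and E molecules and the peptide-loading chains rose: 5 of the 8 tested members passed with MCD mice higher, at a limma adjusted p under 0.05 over 21092 genes, and 0 were lower, where 26.5% of all genes tested passed (10.9% higher). Groups did not overlap in 5 of the 8 members, against 28.4% of all genes. The median difference over the 8 members was 1.59 on the log2 scale, against -0.13 over all genes tested. With each array centred on its median in place of its 75th percentile, the median over all genes was 0.24.

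H2-Aa read 0.51, 0.36, -0.82 and -0.17 in the C mice and 2.21, 1.37, 2.42 and 1.56 in the MCD mice, so the groups did not overlap. The mean was 3.78-fold higher in MCD mice, with a log2 difference of 1.92 (standard error 0.47, limma adjusted p = 0.00348). Its partner H2-Ab1, the beta chain, read 3.50, 4.76, 3.98 and 3.19 in C and 5.73, 5.11, 5.69 and 5.49 in MCD mice. Every MCD value again stood above every C value, and the mean was 3.14-fold higher (limma adjusted p = 0.0084). A second probe that overlaps this one on the H2-Ab1 transcript gave a difference of 1.31. H2-Eb1, the beta chain of the E molecule, read 3.92, 3.46, 3.07 and 3.18 in C and 5.36, 4.52, 4.91 and 4.93 in MCD mice, a difference of 1.52 (standard error 0.39, limma adjusted p = 0.00532). C57/BL6 mice lack the E alpha chain, so no E dimer is expected at their cell surface.

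Both chains of H2-DM moved with them. H2-DMa read -1.30, -1.40, -2.0 and -1.87 in C and 0.66, -0.73, 0.04 and 0.29 in MCD mice, a 3.26-fold higher mean (limma adjusted p = 0.00757). H2-DMb1 read 0.28, 1.58, -0.23 and -0.15 in C and 2.25, 2.04, 2.14 and 2.34 in MCD mice, which lay close together. Its mean was 3.53-fold higher (limma adjusted p = 0.00839), and the groups did not overlap although C replicate 2 stood well above the other C arrays.

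Cd74, the invariant chain, did not pass at this scaling. It read 4.30, 4.76, 3.80 and 3.78 in C and 5.75, 4.65, 5.02 and 4.96 in MCD mice, and MCD replicate 2 lay below C replicate 2. Its difference was 0.94 (95% interval 0.01 to 1.87, limma adjusted p = 0.126), and with arrays centred on their median it passed at 1.30 (adjusted p = 0.0469). The chains of H2-DO, the inhibitor of H2-DM, did not pass either. H2-Oa differed by 0.72 (limma adjusted p = 0.166) and was well above background on 3 of 4 C and 4 of 4 MCD arrays, and with arrays centred on their median it passed at 1.08 (adjusted p = 0.0368). H2-Ob differed by -0.19 (limma adjusted p = 0.703). H2-Ob probes disagreed, since a dimmer probe of the gene was well above background on 0 of 4 C and 4 of 4 MCD arrays, so that the direction of H2-Ob in this comparison is uncertain.

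Genes of the class II pathway outside the set were called in part. Of the 13 tested genes of class II processing and promoter binding, 4 were higher and 2 lower in MCD mice. The 4 were the lysosomal proteases Ctss (2.59 on the log2 scale), which cuts the invariant chain, Ctsl (1.38) and Lgmn (1.19), and the thiol reductase Ifi30 (1.04). The 2 that fell, Rfxank (-1.13) and Nfyb (-0.89), encode subunits of the factors that bind the X and Y boxes. Of 4 tested costimulatory genes, Cd86 (1.99) and Cd40 (1.67) rose, whereas in the interferon gamma list 3 of 17 rose, with Gbp2 (1.57) the largest of them and Cxcl10 (1.62) not called. Cd40 was well above background on 21 of 32 arrays, so the size of its change is uncertain. Of 15 genes of class I presentation 1 was higher and 2 were lower, with a median of -0.25.

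Markers of some leukocytes moved with the members and others did not. In the macrophage and Kupffer cell list, 8 of 10 genes were higher in MCD mice, Vsig4 (2.30), Lyz2 (1.96), Cd68 (1.96) and Cd5l (1.82) among them, and the list mean per array ranged from 1.32 to 2.10 in C and from 2.51 to 4.04 in MCD mice. Dendritic cell genes were higher in 7 of 9, led by Itgax (2.90) and Cd209a (2.32), and the list mean ranged from -1.87 to -1.28 in C and from -0.33 to 0.06 in MCD mice. Cd209a averaged -4.36 in C mice and was well above background on at most 25 of 32 arrays. B cell genes went the other way, with 0 of 7 higher and 2 lower, Cr2 (-1.23) and Cd79a (-1.15), and their list mean ranged from -1.96 to -1.53 in C and from -3.07 to -2.27 in MCD mice. Of 5 plasma cell genes 2 were higher and 1 lower, with list means of -0.32 to 0.70 in C and 0.22 to 0.58 in MCD mice. Pan-leukocyte genes were higher in 5 of 7, with a median of 1.54. T cell genes went both ways, with 3 of 8 higher, among them Cd8a (1.73), and 2 lower, Cd4 (-2.66) and Cd3e (-1.12). Cd8a was dim, at -5.60 in C mice and well above background on at most 20 of 32 arrays. The size of its change is uncertain. Cd4 averaged 6.48 in C mice, far above Cd3e (1.59) and Ptprc (-0.89), and whether its signal came from T cells was not tested. Of 3 monocyte genes Cx3cr1 (2.16) rose and Itgam (-1.56) fell, while the third was higher without passing (1.65, limma adjusted p = 0.0592). Itgam averaged 2.98 in C mice, against -2.93 for Cx3cr1. The part of these cells in the rise of the members was not tested.

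Without any 1 of the 8 arrays the count stayed at 5, and H2-Eb1 missed the threshold in the authors' normalized values (adjusted p = 0.0513) and after normexp and quantile normalization (adjusted p = 0.0542).

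**Figure D2:**
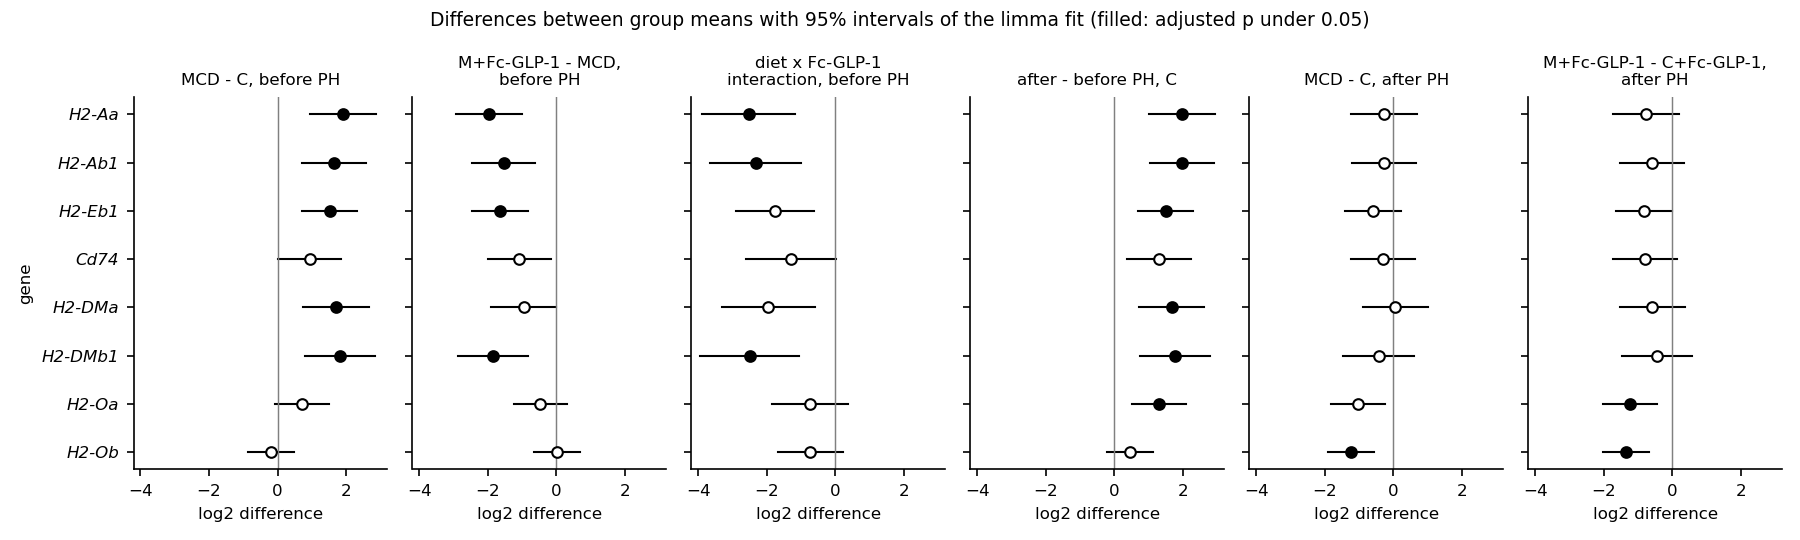
Differences between group means on the log2 scale (x axes) of the 8 tested members (y axis) in 6 comparisons, with 95% intervals from the limma fit of all 32 arrays; filled points passed the adjusted threshold. The diet rise in the leftmost panel (0.94 to 1.92 for the 6 brighter members) faces differences of -1.96 to -0.96 for M+Fc-GLP-1 against MCD mice in the next panel, and both use the same MCD arrays.

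The next comparison asks what Fc-GLP-1 did in mice on the MCD diet before PH. It shares its MCD arrays with the diet comparison, so that the values of both rest on the same 4 mice. The members were lower in treated mice: 4 of 8 passed, all lower, where 7.24% of all genes tested passed (2.78% lower), and the median difference was -1.31 against 0.10 over all genes. Groups did not overlap in 4 members, against 16.4% of all genes. H2-Aa read 0.35, 0.51, -0.78 and -0.34 in the M+Fc-GLP-1 mice, below every MCD value given above, a mean 3.88-fold lower than in MCD mice (difference -1.96, standard error 0.47, limma adjusted p = 0.0124). H2-Eb1 read 3.21, 3.66, 2.99 and 3.28 and differed by -1.64 (standard error 0.39, limma adjusted p = 0.0123). The treated values of these chains lay close to those of the untreated C mice.

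H2-DMb1 read 0.71, 0.11, -0.25 and 0.77 in M+Fc-GLP-1 mice and differed from MCD mice by -1.86 (limma adjusted p = 0.0245). H2-Ab1 read 4.91, 4.43, 3.43 and 3.08 and differed by -1.54 (limma adjusted p = 0.0377), again without overlap. H2-DMa (-0.96, limma adjusted p = 0.204) and Cd74 (-1.08, limma adjusted p = 0.14) did not pass, and their groups overlapped. Cd74 spread widely under treatment, at 4.97, 3.81, 3.00 and 4.28, and passed in the authors' values (adjusted p = 0.0272) and after normexp and quantile normalization (adjusted p = 0.0271). H2-Oa and H2-Ob differed by -0.47 and 0.00 and were each well above background on 2 of 4 treated arrays.

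Macrophage and Kupffer cell genes were lower in 6 of 10, with Cd5l (-1.84), Lyz2 (-1.82), Clec4f (-1.79) and Vsig4 (-1.71) leading, and their list mean ranged from 1.11 to 2.54 in M+Fc-GLP-1 mice. Among dendritic cell genes 2 of 9 were lower, Batf3 (-1.55) and Ccr7 (-1.34), and their list mean ranged from -1.28 to -0.50. B cell genes were called in 0 of 7 by limma, with 1 at an unadjusted p under 0.05 and a median of 0.18. Of 5 plasma cell genes 2 were lower, with list means of -1.71 to -1.15 in M+Fc-GLP-1 mice. The proteases Ctss (-1.69) and Lgmn (-1.44) and the reductase Ifi30 (-1.35) fell, as did Cd40 (-2.40), whereas 0 of 17 interferon gamma genes were called by limma, with 1 at an unadjusted p under 0.05. Cd40 averaged -4.88 in M+Fc-GLP-1 mice, near background, so the size of its fall is uncertain. The part of the leukocyte markers in the fall of the members was not tested.

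The treated and untreated groups lay on different slides, so slide and treatment cannot be told apart here, and 1 member was called without MCD replicate 1, 2 without MCD replicate 4 and 1 without M+Fc-GLP-1 replicate 3. H2-Ab1 missed the threshold in 5 of the 8 fits that left out an array.

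Whether the diet effect differed under treatment is asked by the diet-by-treatment interaction, from which a slide effect drops out if it adds equally to every array of the slide. It was negative in 8 of 8 tested members, with a median of -1.85 against 0.15 over all genes, and 3 passed, where 6.17% of all genes tested passed (2.56% lower). H2-Aa had an interaction of -2.53 (standard error 0.67, limma adjusted p = 0.0255), H2-DMb1 of -2.50 (standard error 0.71, limma adjusted p = 0.0353) and H2-Ab1 of -2.33 (standard error 0.64, limma adjusted p = 0.0318). H2-Eb1 (-1.76, limma adjusted p = 0.056) and H2-DMa (-1.95, limma adjusted p = 0.0693) lay just beyond the threshold, and Cd74 did not pass (-1.28, limma adjusted p = 0.221). Lyz2 (-2.96), Mpeg1 (-2.67), Vsig4 (-2.59) and Clec4f (-2.39) were among 6 of 10 macrophage genes called in it, as was 1 of 5 plasma cell genes. By limma 0 of 7 B cell genes and 0 of 9 dendritic cell genes were called in the interaction, with 0 and 6 at an unadjusted p under 0.05. It rests on few arrays: 0 members were called without MCD replicate 1, MCD replicate 3 or M+Fc-GLP-1 replicate 3, and 1 without C replicate 1, C replicate 4 or C+Fc-GLP-1 replicate 2. With the authors' values 0 of the 8 members passed, with H2-Aa at -2.39 (adjusted p = 0.0544) and H2-Ab1 at -2.91 (adjusted p = 0.0506).

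On standard diet Fc-GLP-1 gave no call. All 8 tested members were higher in C+Fc-GLP-1 than in C mice before PH, by a median of 0.61, but 0 passed the limma threshold, 2 had an unadjusted p under 0.05, and 2.11% of all genes passed. Those 2 were H2-DMa (1.00, 95% interval 0.05 to 1.95, limma adjusted p = 0.251) and H2-Ob (0.74, 95% interval 0.07 to 1.41, limma adjusted p = 0.224). Against C+Fc-GLP-1 mice on the same slide, 8 of 8 members lay lower in M+Fc-GLP-1 mice before PH by a median of -0.48 and 0 passed in limma, where 10.3% of all genes did, and 1 had an unadjusted p under 0.05. That was H2-Ob, which differed by -0.92 (limma adjusted p = 0.0685) and passed without M+Fc-GLP-1 replicate 4 and with arrays centred on their median. The dimmer H2-Ob probe differed by 0.09 there, well above background on 1 of 4 M+Fc-GLP-1 and 2 of 4 C+Fc-GLP-1 arrays.

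In C mice the members were higher 2 weeks after PH than at PH, in a comparison that shares the C arrays at PH with that of the diets. Of the 8 tested, 6 passed, all higher, where 14% of all genes tested passed (6.08% higher), with a median difference of 1.59 against -0.08 over all genes. Groups did not overlap in 5 members, against 17.9% of all genes. H2-Ab1 read 7.12, 5.73, 4.99 and 5.43 after PH, above every value at PH, a 3.89-fold higher mean (standard error 0.46 on the log2 scale, limma adjusted p = 0.00497). H2-Aa read 3.24, 1.79, 1.10 and 1.59 after PH, a difference of 1.96 (standard error 0.47, limma adjusted p = 0.00636). The array of C replicate 1 after PH was the highest of its group in all of the 6 brighter members.

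H2-Eb1 read 6.08, 4.71, 4.02 and 4.78 after PH and differed by 1.49 (limma adjusted p = 0.0121). H2-DMa read 1.97, -0.52, -0.85 and -0.46 and differed by 1.68 (limma adjusted p = 0.0163), and H2-DMb1 read 4.21, 1.75, 0.55 and 2.06 and differed by 1.77 (limma adjusted p = 0.0185). Cd74 read 6.87, 5.52, 4.34 and 5.08 and missed the threshold (1.30, limma adjusted p = 0.0538). Without C replicate 1 after PH, 2 of the 8 members passed, H2-Aa and H2-Ab1, whose differences were then 1.52 and 1.53. That array also stood apart in marker lists, with a list mean of 2.48 for pan-leukocyte genes and 2.00 for monocyte genes, where the other 3 arrays reached at most 0.75 and -0.15, while its B cell list mean of -2.74 was the lowest of the group.

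H2-Oa followed another pattern among these arrays. It read -2.90, -1.90, -2.83 and -2.98 at PH and -1.26, -1.15, -1.35 and -1.61 after PH, so that C replicate 1 did not stand out, and differed by 1.31 (standard error 0.38, limma adjusted p = 0.0219). It missed the threshold in 5 of the 8 fits that left out an array, with an adjusted p of at most 0.06, and its difference stayed between 1.20 and 1.56. H2-Ob differed by 0.46 (limma adjusted p = 0.364), while its dimmer probe went from 0 of 4 arrays well above background at PH to 4 of 4 after PH, so that its probes disagreed here too. Macrophage and Kupffer cell genes were higher after PH in 10 of 10, led by Lyz2 (2.64) and Marco (2.27), dendritic cell genes in 4 of 9, and B cell genes in 0 of 7 by limma, with 1 at an unadjusted p under 0.05. Ctss (2.65), Ifi30 (1.27), Sppl2a (0.94) and Cd86 (1.60) rose too. C samples before and after PH differed in slide, scanner and scan day, and time and these cannot be told apart.

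The other groups gave no call over time at this scaling. Under the authors' normalization 8 of 8 members passed in limma for C+Fc-GLP-1 mice, with H2-Eb1 at 2.56 (adjusted p = 0.000736), while M+Fc-GLP-1 mice gave 6 calls, with H2-Eb1 at 1.78 (adjusted p = 0.0085). Of all genes, 8088 passed for C+Fc-GLP-1 and 7240 for M+Fc-GLP-1 mice under that normalization, against 176 and 361 at the scaling used here. The median of all genes was itself 0.47 to 0.53 higher after PH in those values. At the scaling used here, 8 of 8 members of C+Fc-GLP-1 mice were higher after PH, by a median of 0.84 and up to 1.31 for H2-Eb1 (limma adjusted p = 0.101), and 0 passed in limma, where 0.834% of all genes did, with 3 at an unadjusted p under 0.05. C+Fc-GLP-1 replicate 1 after PH was the highest of its group in each of the 6 brighter members, with H2-Eb1 at 6.40 against 4.29, 4.50 and 4.12. In M+Fc-GLP-1 mice 6 of 8 were higher, by a median of 0.59, and 0 passed in limma, where 1.71% of all genes did, with 1 at an unadjusted p under 0.05 (H2-DMb1, 1.31, limma adjusted p = 0.179). In MCD mice, already high at PH, the median difference was -0.34 and 0 of 8 passed in limma, where 9.46% of all genes did, with 0 at an unadjusted p under 0.05. The interaction of diet and time under Fc-GLP-1 passed in 0 members, where 0.0948% of all genes passed, and 1 had an unadjusted p under 0.05 (H2-Oa, -1.22, limma adjusted p = 0.473).

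After PH the diet and treatment contrasts of the A, E and H2-DM chains and Cd74 gave no call. Across these 6 members MCD and C mice after PH differed by -0.59 to 0.05, where 12.1% of all genes passed (6.08% lower), and the 95% interval of H2-Aa ran from -1.23 to 0.69. Treatment on the MCD diet gave differences of -0.81 to -0.07 in the 6, 0 of 8 members passed in limma, where 6.5% of all genes did, and 0 had an unadjusted p under 0.05. On standard diet it gave -0.47 to 0.40 over the 8 members, 0 passed in limma, where 2.06% of all genes did, and 0 had an unadjusted p under 0.05. Whether the diet effect in untreated mice differed between the time points was not tested.

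The few calls between diets after PH fell on the H2-DO chains. H2-Ob, the beta chain, read -3.35, -1.80, -2.21 and -2.60 in C and -3.58, -3.89, -3.55 and -3.87 in MCD mice, where 1 of 4 arrays was well above background. The fitted difference was -1.23 (MCD minus C, standard error 0.33, limma adjusted p = 0.0126). Its size is uncertain with 3 of 4 MCD arrays not well above background. H2-Ob was the only member called in this comparison, 1 of 8, where 12.1% of all genes passed (6.08% lower). The count thus lay near the share of all genes. H2-Oa and H2-Ob were the 2 members whose groups did not overlap, against 17.2% of all genes. H2-Ob missed the threshold without C replicate 2 after PH (adjusted p = 0.0673), in the authors' values (-0.50, adjusted p = 0.0573) and after normexp and quantile normalization (-0.40, adjusted p = 0.13). H2-Oa, the alpha chain, read -1.83, -2.29, -2.70 and -2.68 in MCD mice, below every C value, and differed by -1.03 (limma adjusted p = 0.0772).

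Under Fc-GLP-1 all 8 tested members were lower on the MCD diet, on the same slide, by a median of -0.79 (-1.36 to -0.45). The H2-DO chains were the 2 that passed, where 12.8% of all genes passed (6.61% lower) and groups of 16.6% did not overlap. A count of 2 in 8 is small and not far from that share. H2-Eb1 (-0.83, limma adjusted p = 0.184) and Cd74 (-0.81, limma adjusted p = 0.278) were lower without passing. H2-Ob read -2.09, -2.10, -2.24 and -1.93 in C+Fc-GLP-1 and -3.22, -3.39, -2.96 and -4.23 in M+Fc-GLP-1 mice, a 2.57-fold lower mean (difference -1.36, standard error 0.33, limma adjusted p = 0.00536), and it passed without any 1 of the 8 arrays. Its probe was well above background on 3 of 4 M+Fc-GLP-1 arrays. Over all the alternatives H2-Ob still passed, but its difference ran from -1.61 to -0.58, so the size is uncertain. The dimmer H2-Ob probe was well above background on 4 of 4 C+Fc-GLP-1 and 0 of 4 M+Fc-GLP-1 arrays, and after PH without treatment on 4 of 4 C and 1 of 4 MCD arrays. H2-Oa read -1.34, -1.99, -1.42 and -1.79 in C+Fc-GLP-1 and -2.90, -3.31, -2.26 and -3.02 in M+Fc-GLP-1 mice, a 2.36-fold lower mean (limma adjusted p = 0.0304). H2-Oa missed the threshold without C+Fc-GLP-1 replicate 1 or 3, or without M+Fc-GLP-1 replicate 1, 2 or 4, and the count was then 1.

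Markers of several leukocytes moved with H2-DO in this comparison. Of 7 B cell genes 4 fell in M+Fc-GLP-1 mice, among them Ms4a1 (-2.24), Cd79b (-1.22) and Cd22 (-0.91), and the list mean ranged from -1.65 to -1.16 in C+Fc-GLP-1 and from -3.35 to -1.94 in M+Fc-GLP-1 mice, without overlap. Ms4a1 was well above background on 20 of 32 arrays, at a mean of -4.40 in M+Fc-GLP-1 mice. The size of its fall is uncertain. Of 8 T cell genes 2 fell, Cd3g (-1.44) and Cd3d (-0.89), and the list's mean was -0.99 to -0.41 in C+Fc-GLP-1 mice, against M+Fc-GLP-1 values of -1.57 to -1.04. Of 10 macrophage and Kupffer cell genes 2 fell, Timd4 (-1.51) and Clec4f (-1.08), with list means of 3.28 to 4.33 against 2.55 to 3.19, and of 7 pan-leukocyte genes 1 fell, Rac2 (-1.19). Between MCD and C mice after PH 0 of 7 B cell genes were called by limma, with 1 at an unadjusted p under 0.05, and the list mean ranged from -2.74 to -0.94 in C and from -2.29 to -1.70 in MCD mice. The part of these cells in the H2-DO differences was not tested.

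Across the 32 arrays the members fell into those that varied together and those that did not. The 15 pairs among the 6 brighter members had Pearson's r between 0.79 and 0.93, and between 0.60 and 0.88 over deviations from the group means. H2-Oa had r between 0.45 and 0.65 with the 6, and H2-Ob between -0.16 and 0.01, while r between H2-Oa and H2-Ob was 0.45. These are descriptions, since arrays of a group share their treatment and slide, and H2-Oa and H2-Ob were nearer background than the 6.

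**Figure D3:**
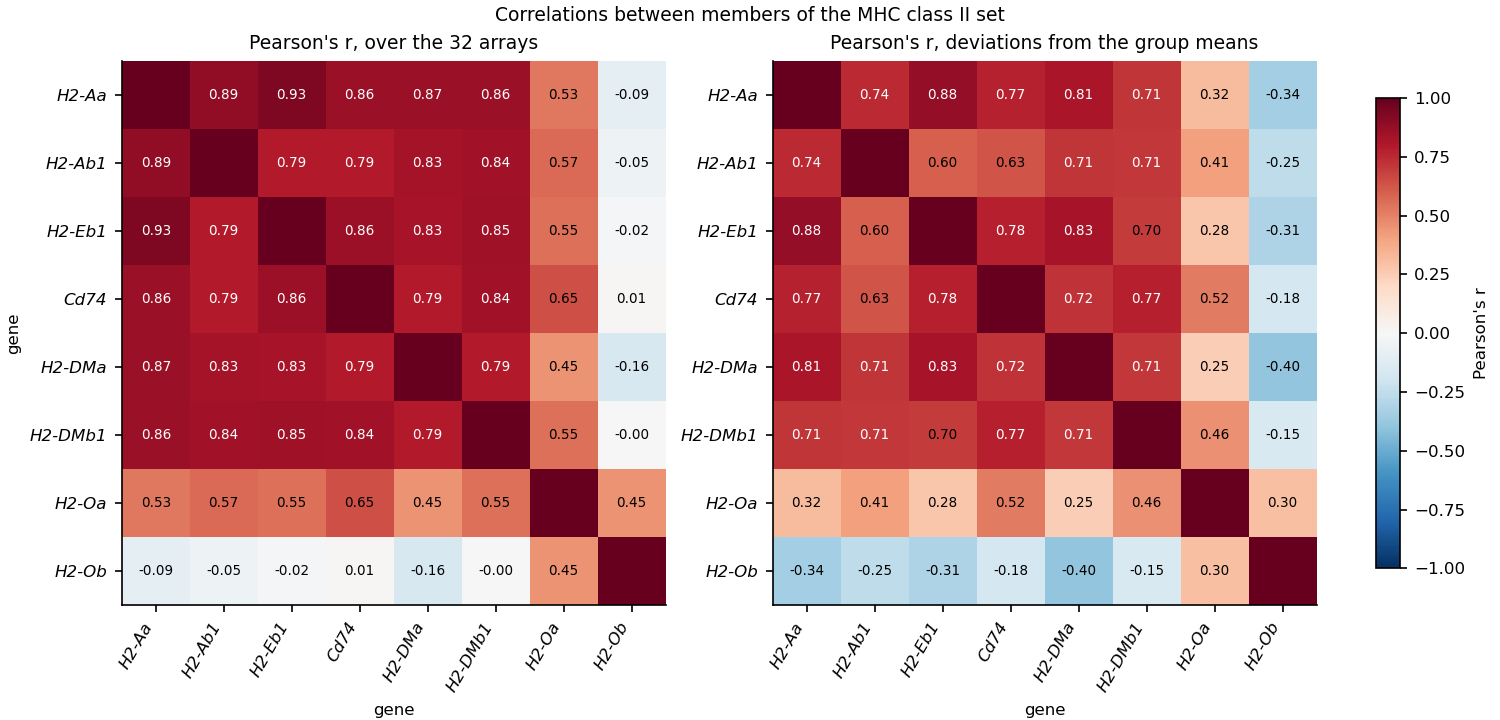
Pearson's r between the 8 tested members (both axes) over the 32 arrays (left) and over each array's deviation from the mean of its group (right), by colour and number. The 6 brighter members form a block at 0.79 to 0.93 on the left, and the row of H2-Ob runs from -0.16 to 0.45.

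The mean of the 6 brighter members per array ranged from 1.30 to 2.25 in C and from 2.82 to 3.66 in MCD mice before PH, from 1.15 to 2.20 in M+Fc-GLP-1 mice before PH, and from 2.36 to 4.92 in C mice after PH. Set beside the marker lists over the 32 arrays, it had r = 0.89 (Spearman's rho 0.92) with macrophages and Kupffer cells and r = 0.94 (rho 0.92) with pan-leukocyte genes. Over deviations from the group means these were 0.78 and 0.90, and without the 2 arrays farthest from the median of the list 0.86 and 0.91. The mean of the 6 also had r = 0.91 with costimulation, 0.85 with monocytes and 0.85 with genes of class II processing and promoter binding. It had r = 0.73 with dendritic cells, 0.45 with T cells, 0.44 with plasma cells, 0.03 with sinusoidal endothelium and -0.59 with hepatocytes. With B cells it had r = -0.02 (rho 0.02), and -0.37 over deviations from the group means. H2-Ob had r = 0.68 (rho 0.66) with B cells, 0.66 within groups and 0.60 without the 2 farthest arrays, and r = -0.02 (rho -0.03) with macrophages and Kupffer cells. It also had r = 0.57 with T cells and 0.45 with class I presentation, and H2-Oa had r = 0.66 with T cells and 0.45 with B cells. No p is given, as the points share groups, slides and array-wide scaling.

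**Figure D4:**
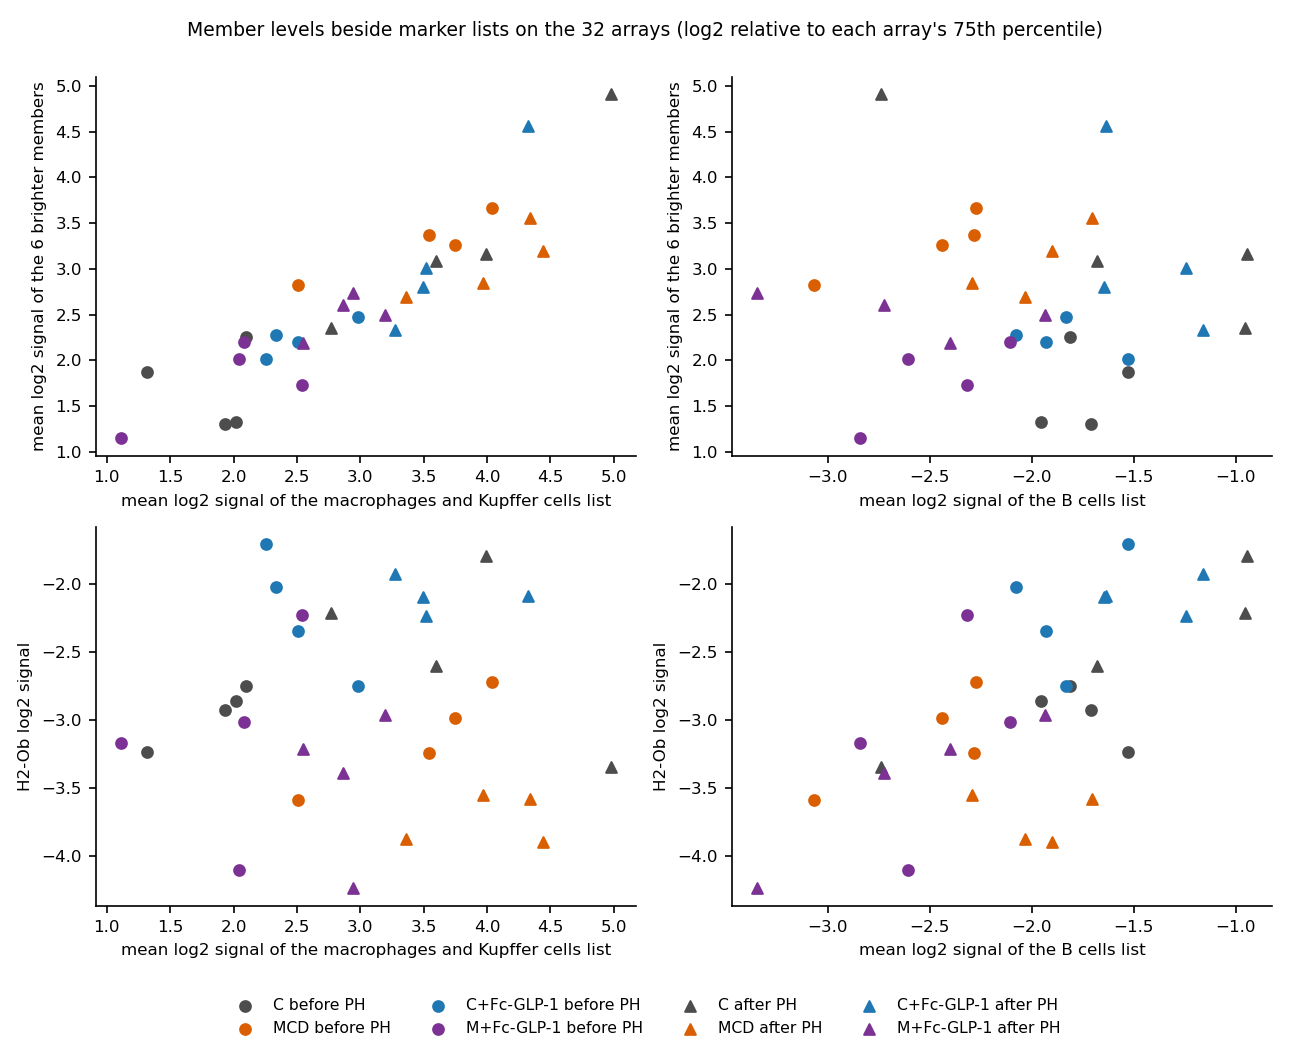
Mean log2 signal of the 6 brighter members (top) and log2 signal of H2-Ob (bottom) against the mean log2 signal of the macrophage and Kupffer cell list (left) and of the B cell list (right), 1 point per array, circles before and triangles after PH, coloured by group. The top left panel rises together (r = 0.89) and the top right does not (r = -0.02), while H2-Ob has r = 0.68 with the B cell list.

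The 10 genes outside the set whose signal was most like the averaged profile of the 6 brighter members over the 32 arrays included P2ry6 (r = 0.93), C1qb (0.93), Ms4a6c (0.93), Cd52 (0.92), Tnfaip8l2 (0.92), Cd48 (0.92), Nckap1l (0.92), Selplg (0.91) and Gpr65 (0.91). C1qb encodes a chain of complement C1q, P2ry6 a nucleotide receptor and Nckap1l a regulator of actin in blood cells. By the same measure the dendritic cell marker Itgax had r = 0.78, Clec4f of Kupffer cells 0.78 and Ptprc 0.80. Lower values were those of Irf8 (0.67), Tap1 of the class I pathway (0.34), Ifng (0.29), Cd3e (-0.16), Ms4a1 (-0.23) and Cd79a (-0.27).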

How the data were processed

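The authors deposited 1 scanner table per array, with processed intensity values that Agilent Feature Extraction 10.7.3.1 had background corrected and detrended per the file headers, and a table of normalized log2 values made with limma. Here log2 of the processed intensity was set against each array's 75th percentile over its 59305 spots other than controls. Spots flagged as outliers were left out, which dropped 426 probes. A probe was kept where some group read it well above background in each of its 4 arrays (28958 probes), and the brightest of a gene stood for it (21092 genes). The 8 group means were fitted over all 32 arrays with limma 3.58.1 (R 4.3.3), with 14 comparisons and Benjamini-Hochberg adjustment at 0.05. Arrays were treated as separate mice, and their number, 4 per group, limits the precision. The members, the marker lists and the tests were chosen with earlier results of these data known. Members are named throughout, list genes as those with the largest changes in a comparison, and member differences individually where the unadjusted p was under 0.1 or a comparison needed them. On simulated data for MCD against C before PH, 18% of changes of 1 and 89% of changes of 2 on the log2 scale in 200 of 21092 genes were recovered, so changes near 1 can be missed. The alternatives were normexp with quantile normalization, centring on the array median, the authors' values, dim probes kept, probes of a gene averaged, only the groups compared, the replicate number or the slide as a block, and each array left out in turn. Probe positions were on mm9 and promoters on GRCm38. Some genes that the naming rule picks are not reported here.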

Additional observations from a re-analysis of the deposited data

Results flagged for a closer look

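Within groups, 3 of 64 sets of 4 arrays held a value whose gap to its neighbour exceeded Dixon's 95% critical value as a share of the group's range, where chance gives about 1 in 20 sets. H2-DMa read 1.97 in C replicate 1 after PH, next to -0.46. H2-Eb1 read 6.40 in C+Fc-GLP-1 replicate 1 after PH, next to 4.50. H2-Oa read -1.90 in C replicate 2 before PH, next to -2.83. The effect of the MCD diet before PH differed between untreated and Fc-GLP-1-treated mice, by the interaction term of the limma fit, in 3 members. These were H2-Aa (-2.53, adjusted p = 0.0255), H2-Ab1 (-2.33, adjusted p = 0.0318) and H2-DMb1 (-2.50, adjusted p = 0.0353), and all 3 missed the threshold in the authors' values. In all 3 the diet difference was above 0 without and below 0 with treatment. The differences below 0 were not called.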

How the results depend on the processing

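The 14 counts of members called were recomputed under 8 other settings and with each array left out. With 1 array left out the count lay between 1 and 4 for M+Fc-GLP-1 against MCD mice before PH (4 with all arrays). It lay between 0 and 4 for the diet-by-treatment interaction (3 with all arrays) and between 2 and 7 for C mice after against before PH (6 with all arrays). For M+Fc-GLP-1 against C+Fc-GLP-1 mice before PH it rose from 0 to at most 1. For MCD against C mice after PH it fell from 1 to as low as 0, and for M+Fc-GLP-1 against C+Fc-GLP-1 mice after PH from 2 to as low as 1. With the authors' normalized values the count was 8 for C+Fc-GLP-1 and 6 for M+Fc-GLP-1 mice after against before PH, 0 for the interaction and 0 for MCD against C mice after PH. Of all genes, 8088 passed for C+Fc-GLP-1 and 7240 for M+Fc-GLP-1 mice over time with these values. In these values the median of all genes was 0.47 to 0.53 higher after PH in each of the 4 groups. Members were tested against 0 and not against that shift. H2-Ob in MCD mice after against before PH was reversed in the authors' values, at 0.059 against -0.59. Normexp with quantile normalization gave 0 for MCD against C mice after PH and 1 for C+Fc-GLP-1 mice over time. Centring on the array median gave 5 for the interaction and 1 for M+Fc-GLP-1 against C+Fc-GLP-1 mice before PH, where it shifted the median of all genes in the interaction from 0.15 to -0.47. Without the filter on dim probes the count was 1 for M+Fc-GLP-1 against C+Fc-GLP-1 mice after PH. A fit of only the groups compared gave 5 for the interaction, 3 for C mice over time and 2 for MCD against C mice after PH. The replicate number as a block gave 5 for the interaction, though same-numbered samples before and after PH had a mean correlation of 0.0126 and the numbers were not taken to pair mice. The slide as a block could be fitted where it held more than 1 group compared. As every group lay on 1 slide, this could not change a count, so it is no check on slide effects. Causes of these changes were not tested. With 4 arrays per group, changes near 1 on the log2 scale lie close to what can be called, and Ciita and H2-DMb2 are limited by signal near background.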
